A study of Drosophila melanogaster with 4 samples.

Results

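Long stretches of the chromosome arms without a region of KDM4A enrichment were described in Drosophila melanogaster, in nuclei of whole larvae of the 3rd instar from the wild-type strain Oregon-R. A stretch was taken as the space between consecutive enriched regions of the combined list of the series, measured from the largest earlier region end to the next region start, where this came to 40000 bp or more on arm 2L, 3L, 3R or X of genome release 5. Of 7820 gaps between regions on these 4 arms, 432 met this length (5.52%), and the combined list as a whole had 11000 gaps over all chromosomes. The stretches were thus chosen by the measured regions of the combined list, and their number, lengths and lack of combined regions are a description and carry no test. The series held 2 ChIP libraries, made with a polyclonal antibody to JMJD2A/KDM4A that was raised in rabbit and purified by affinity, and 2 libraries of input DNA, all of the same strain, stage and genotype. Samples were grouped by title. The free-text description of ChIP replicate 2 names input DNA only, against its title, and that of input replicate 1 names ChIP DNA. Values of replicate 2 rest on its title, and the replicates are therefore given separately. One list was at hand for each ChIP replicate and 1 for the series, and no list of the input libraries was used.

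KDM4A is a JmjC-domain histone demethylase. In Drosophila it is known to remove methyl groups from lysine 36 of histone H3 and to bind the heterochromatin protein HP1a, which stimulates this activity. Methylated lysine 36 marks the bodies of transcribed genes. Much of the euchromatin of fly arms is known to lie in long silent domains, poor in active marks, that differ among tissues. No histone mark or transcript was measured here. In a whole larva, binding in a few cells and no binding cannot be told apart where no region was called, and a stretch without a called region is not shown to lack KDM4A.

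On the 4 arms the combined list had 7827 regions that left 78.1% of the 97.9 Mb uncovered. The 432 stretches made up 34.7 Mb, or 35.5% of the arm length and 45.5% of the uncovered bases. Their median length was 62.7 kb (quartiles 49.4 and 96.0 kb), against 2757 bp for all gaps between combined regions. Few of the stretches were very long: 230 reached 60 kb, 97 reached 100 kb, 36 reached 150 kb, 14 reached 200 kb and 3 reached 300 kb. The longest 127 held 50% of all stretch bases. The lists give no read totals, so depth is unknown, and lengths were not corrected for unsequenced or repeated DNA, to which no read may have been assigned.

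The minimum length cut through a continuous range. The 3 shortest stretches were 3R 11931322 to 11971492 (40170 bp), X 13789162 to 13829408 (40246 bp) and X 187908 to 228174 (40266 bp), and they held 0, 0 and 1 regions of replicate 1. The 3 gaps just below the minimum were 2L 16547048 to 16586958 (39910 bp), X 12301832 to 12341654 (39822 bp) and 2L 21058242 to 21098052 (39810 bp), with 5, 3 and 3 regions of replicate 1. None of these 6 held a region of replicate 2. A minimum of 60 kb left 230 stretches, 25.4% of the arm length, and stretches between combined regions of the higher-scoring 50% took up 56.9%.

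**Figure D1:**
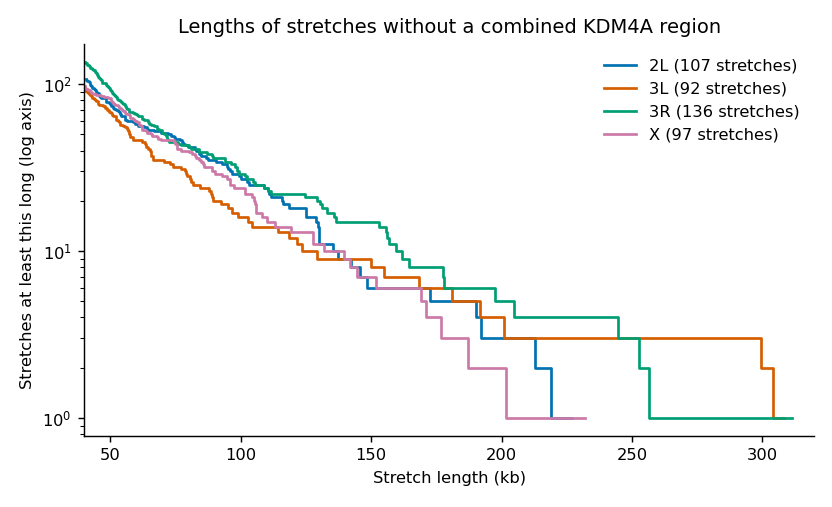
Number of stretches at least as long as the length on the x axis (kb), on a log y axis, with 1 line for each arm. Arm 3R had the most stretches (136) and the longest (311.4 kb), and 3L had 3 near 300 kb although it had the fewest stretches (92).

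Arm 3R held 136 stretches that took up 38.8% of it, arm 2L 107 (37.7%), the X 97 (35.2%) and arm 3L 92 (30.0%). Per Mb of arm this came to 4.87, 4.65, 4.33 and 3.75 stretches. Median lengths were 67.9 kb on the X, 64.6 kb on 2L, 60.4 kb on 3L and 58.0 kb on 3R, so the arm with the most stretches had the shortest median. The longest stretch was 311.4 kb on 3R, 308.2 kb on 3L, 232.2 kb on the X and 226.9 kb on 2L. These orders are of 1 list. In the lists of the replicates alone, stretches of the same minimum took up 34.2% (replicate 1) and 54.5% (replicate 2) of 3R, 32.0% and 55.1% of the X, 29.3% and 58.8% of 2L, and 24.1% and 53.8% of 3L. Arm 3L was lowest in each of the 3 lists, while the order of 2L, 3R and X differed between them.

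Each arm was split into 10 bins of equal length, numbered from the telomere, and stretches were found in every bin, but unevenly. On 2L they took up 57.9% of bin 7 and 13.0% of bin 10, next to the centromere. On the X the order was the opposite, with 59.7% in bin 10 and 18.8% in bin 8. On 3R they took up 54.0% of bin 2 and 21.8% of bin 3. On 3L the highest value was 50.0% in bin 3 and the lowest 19.3% in bin 9. Pooled over the 4 arms the bins ran from 27.7% (bin 4) to 39.9% (bin 7), a narrower range than on any of the arms.

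**Figure D2:**
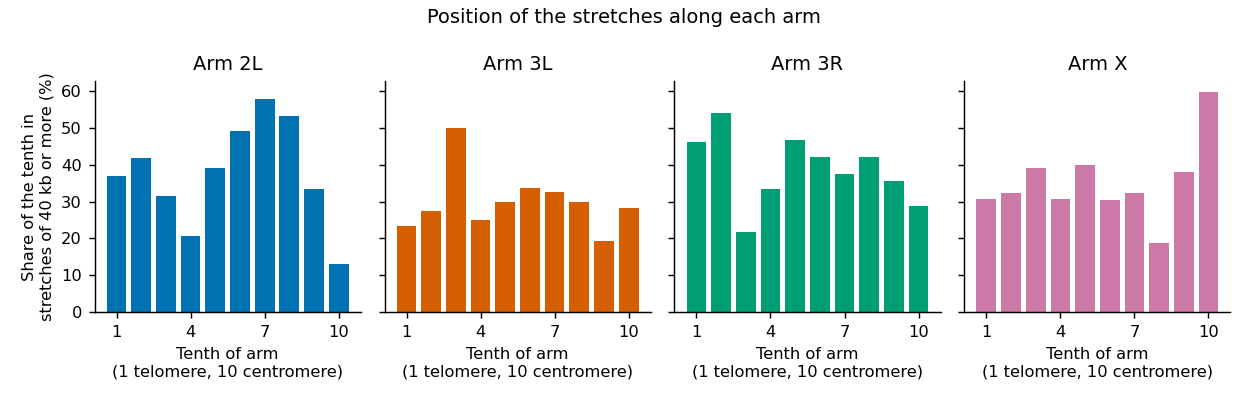
Share (%) of each of 10 equal bins of an arm in stretches of 40 kb or more, from the telomere (1) to the centromere (10), 1 panel for each arm. Highest bars stand in bin 7 of 2L (57.9%), bin 3 of 3L (50.0%), bin 2 of 3R (54.0%) and bin 10 of the X (59.7%).

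Outermost combined regions lay close to the arm ends of the assembly, so no stretch reached an end. The distance from the telomeric end to the outermost region was 2.06 kb on the X, 5.06 kb on 2L, 9.53 kb on 3R and 21.2 kb on 3L. At the centromeric end it was 0.00100 kb on 3L (where the last region reached the end), 1.80 kb on 3R, 3.68 kb on the X and 7.00 kb on 2L. The stretch nearest the telomere was 3R 27818328 to 27864896 (46.6 kb, 40.2 kb from the end), X 78530 to 138714 (60.2 kb, 78.5 kb from the end), 3L 378510 to 432102 (53.6 kb, 378.5 kb from the end) and 2L 670334 to 713974 (43.6 kb, 670.3 kb from the end). These held 3, 3, 0 and 1 regions of replicate 1 and 0 of replicate 2. The stretch nearest the centromere was X 22352154 to 22405302 (53.1 kb, 17.5 kb from the end), 3L 24327522 to 24386192 (58.7 kb, 157.4 kb), 3R 664572 to 708084 (43.5 kb, 664.6 kb) and 2L 22025358 to 22076466 (51.1 kb, 935.1 kb). They held 4, 4, 2 and 4 regions of replicate 1, and 3L 24327522 to 24386192 also held 1 of replicate 2.

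Between the stretches lay intervals with a median of 67 to 107 kb, depending on the arm (66.5 kb on 3R, 78.0 kb on 2L, 89.0 kb on 3L and 107.2 kb on the X). The longest interval without a stretch was 3L 13837822 to 14823324, 985.5 kb with 98 combined regions. Its counterparts were 2L 7683802 to 8620954 (937.2 kb, 129 regions), X 15185676 to 16042310 (856.6 kb, 108 regions) and 3R 868056 to 1689224 (821.2 kb, 103 regions). The 985.5 kb interval of 3L directly followed the longest stretch of that arm.

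The 10 longest stretches lay on 3R (4), 3L (3), 2L (2) and the X (1). The longest, 3R 23815750 to 24127128 (311.4 kb), held 1 region of replicate 1 that covered 0.622% of it, and its bordering regions scored 0.504 and 0.305. Next came 3L 13529610 to 13837822 (308.2 kb) with 6 replicate 1 regions (3.00% covered by them), 3L 22402356 to 22706424 (304.1 kb) with 9 (4.58%) and 3L 4826788 to 5126194 (299.4 kb) with 1 (0.487%). A further 3 were on 3R: 6722360 to 6979078 (256.7 kb) held 1, 18620904 to 18873502 (252.6 kb) held 2 and 23127384 to 23372166 (244.8 kb) held 0. The last 3 were X 14142704 to 14374886 (232.2 kb) with 0, 2L 14745146 to 14972046 (226.9 kb) with 6 and 2L 16911298 to 17130154 (218.9 kb) with 2. None of the 10 held a replicate 2 region, as was the case for 422 of all 432 stretches. Of these 10, 3R 23815750 to 24127128 and 3R 23127384 to 23372166 both lie in bin 2 of that arm.

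The stretches were short of regions in both ChIP replicates, but to different degrees. Of 8185 replicate 1 regions on the 4 arms, 512 had their midpoint inside a stretch (6.26%, exact 95% interval 5.74 to 6.80), and of 4420 replicate 2 regions 10 did (0.226%, 0.109 to 0.416). Per Mb, replicate 1 had 14.7 regions inside the stretches and 121.5 in the rest of the arms. Replicate 2 had 0.288 per Mb inside and 69.8 in the rest. Covered bases, with the overhang of regions centred outside included, were 2.86% inside and 34.2% in the rest in replicate 1, and 0.0719% inside and 18.9% in the rest in replicate 2. These values are a description. The combined list is of the same libraries, so the stretches were not chosen independently of the replicate regions. Also, 2 replicates allow no test across samples. Intervals cover counting error only. Nothing in the labels says whether the replicates came from separate collections of larvae.

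The low density of replicate 1 regions held on each arm. Inside the stretches it was 17.2 per Mb on 2L, 16.9 on 3L, 11.6 on 3R and 14.3 on the X, against 123.1, 121.3, 123.6 and 117.8 per Mb in the rest of the same arms. Replicate 2 had 0, 3, 5 and 2 regions inside the stretches of 2L, 3L, 3R and the X. On 2L, 0 of 971 regions allows a share of up to 0.309% by the one-sided limit of 3 counts, and the upper bound of the exact interval is 0.379%. Counting any overlap of 1 bp instead of the midpoint raised the shares to 11.1% in replicate 1 and 2.29% in replicate 2, because regions that straddle a stretch edge are then included.

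**Figure D3:**
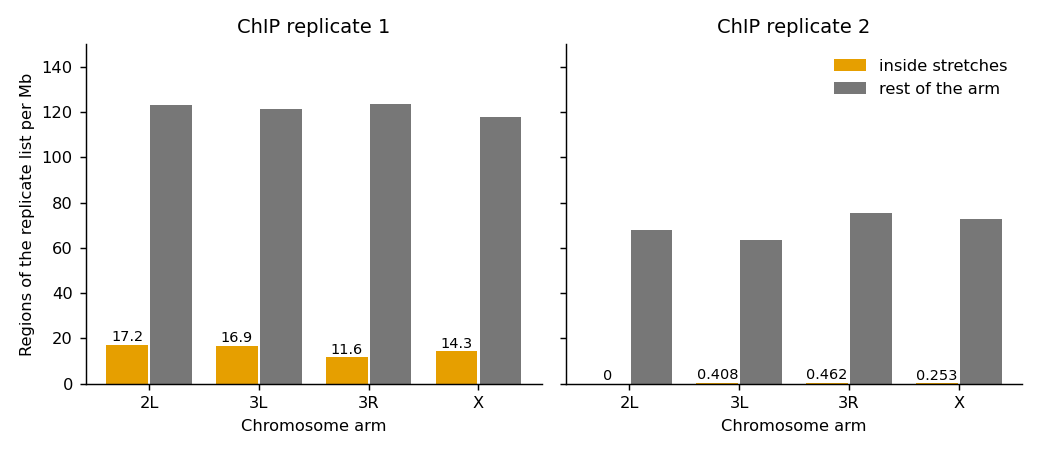
Regions of each ChIP replicate list per Mb, inside the stretches (orange, value printed) and in the rest of the same arm (grey), for each arm. Replicate 1 had 11.6 to 17.2 per Mb inside against 117.8 to 123.6 in the rest, and replicate 2 had 0 to 0.462 against 63.5 to 75.6.

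In replicate 1 alone, 168 of 432 stretches held no region. By both lists, 166 of 432 held no region of either replicate (38.4%, exact 95% interval 33.8 to 43.2), 256 held regions of replicate 1 alone, 8 of both and 2 of replicate 2 alone. The empty ones came to 11.7 Mb. On 3R 61 of 136 stretches were empty (44.9%), on the X 38 of 97 (39.2%), on 2L 37 of 107 (34.6%) and on 3L 30 of 92 (32.6%), with intervals that overlapped. If every base of a replicate region counts, including the overhang of bordering regions, 35 stretches had none (8.10%). When only replicate regions that scored at or above the median of their own list were counted, 303 held none. Stretches with 1, 2 and 3 replicate 1 regions numbered 143, 66 and 25, and 30 held 4 or more. Longer stretches held more of them (Pearson r = 0.32, Spearman rho = 0.22 over 432 stretches, which share libraries and differ in length), but at no higher density. Replicate 1 had 18.3 per Mb in stretches of 40 to 60 kb, 14.3 in those of 60 to 100 kb, 11.2 in those of 100 to 150 kb and 14.1 in longer ones. Empty stretches made up 45.0% of the shortest class and 13.9% of the longest (5 of 36).

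The longest stretch with no region of either replicate was 3R 23127384 to 23372166 (244.8 kb). Replicate 1 covered 101 of its bases, at an edge, and replicate 2 covered 0. X 14142704 to 14374886 (232.2 kb) came next, with 0 bases of replicate 1 and 14 of replicate 2, followed by X 4597952 to 4799806 (201.9 kb) and 3R 24172158 to 24369554 (197.4 kb). After them came 3R 25147034 to 25303868, 156.8 kb without 1 base of either replicate.

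In 429 of 432 stretches the longest run without a base of replicate 2 was 40 kb or more, and in 327 (75.7%, 71.4 to 79.7) the longest run without a base of replicate 1 was. Such a run can be much shorter than its stretch. In 3L 22402356 to 22706424 (304.1 kb) the longest run free of replicate 1 was 100.6 kb, and in 2L 14745146 to 14972046 (226.9 kb) it was 106.6 kb. Measured in its own list, replicate 1 had 385 stretches of 40 kb or more (29.4 Mb) and replicate 2 had 559 (54.3 Mb). Bases of the combined stretches lay in those of replicate 1 to 75.4% and in those of replicate 2 to 99.8%, and they made up 89.1% of the stretches of replicate 1 and 63.8% of those of replicate 2. The longest in replicate 2 was 2L 16911237 to 17383073 (471.8 kb), which held 9 combined regions. Where all 3 lists were joined, 352 stretches of 40 kb or more were left, 25.4 Mb or 26.0% of the arms, and the longest was 3L 13531317 to 13783422 (252.1 kb), inside the second longest stretch of the combined list.

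Replicate 1 regions inside the stretches were narrow and had scores in the middle of their list. Their median width was 1536 bp, against 2233 bp for replicate 1 regions in the rest of the arms, and the widest was 5911 bp. Each region carries a score given by the authors, on a scale that the lists leave unnamed. The median score was 0.777 inside and 0.790 in the rest. By arm it was 0.761 inside and 0.778 in the rest on 2L, 0.768 and 0.777 on 3L, 0.738 and 0.746 on 3R, and 0.884 and 0.889 on the X. Ranked among all replicate 1 regions of the 4 arms, 16.8% of the inside regions fell in the lowest score quartile, 36.3% and 35.2% in the middle ones and 11.7% in the highest. Of the 512 regions, 1 touched a region of replicate 2 (0.195%, 0.00494 to 1.08), against 4048 of 7673 in the rest (52.8%). A region found in both replicates would rarely be missing from the combined list, so this contrast partly restates how the stretches were chosen.

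**Figure D4:**
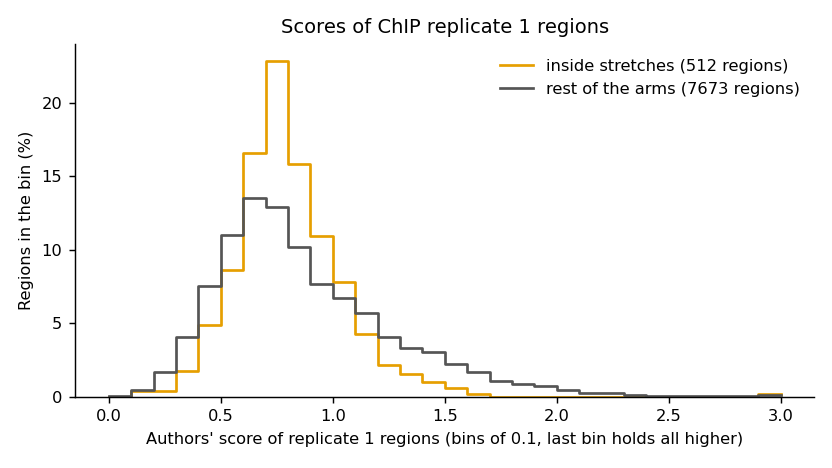
Share of replicate 1 regions (%) in bins of 0.1 of the authors' score, inside the stretches (orange, 512 regions) and in the rest of the 4 arms (grey, 7673 regions). Both curves peak between 0.6 and 0.8 and have medians of 0.777 and 0.790, and the inside regions are fewer at both tails.

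A closer comparison is with replicate 1 regions that touch no combined region. On the 4 arms there were 1524 of these, 504 inside the stretches (33.1%) and 1020 in the rest. The stretches make up 35.5% of the arm length, so such regions stood at 14.5 per Mb inside and 16.2 per Mb in the rest. Per Mb without a combined region the values were 14.5 and 24.5. Median widths were 1534 and 1526 bp, and median scores 0.776 and 0.715. Of the 504, 0 touched replicate 2, against 7 of the 1020. In replicate 2, 10 of 96 regions that touched no combined region lay in the stretches (10.4%). They stood at 0.288 per Mb inside, against 1.36 per Mb in the rest and 2.06 per Mb of the rest without a combined region. Such regions can lie only where the combined list has no region or at its margins. Per Mb without a combined region they were sparser inside the stretches in both replicates. A near-even density was seen in replicate 1 only, and only per Mb of arm.

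Within a stretch, replicate 1 regions were not gathered at the edges alone. In 5 equal bins from the edge to the centre, 27.0% and 26.8% lay in the outer ones, 15.2% and 14.1% in the next and 17.0% in the innermost. These bins go by the midpoint of a region. From the nearer end of the region to the edge, the median distance was 14.1 kb, and it was under 5 kb for 111 of 512.

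A few stretches were well filled in replicate 1. X 11829234 to 11886644 (57.4 kb) held 12 replicate 1 regions, the most of any stretch, which covered 44.9% of it and lay from 11830797 to 11884263. The longest run there without a base of replicate 1 was 9.33 kb. Their widths were 1339 to 3855 bp and their scores 0.550 to 1.26. Replicate 2 and the combined list had 0 regions there. Next in number were 3L 22402356 to 22706424 (304.1 kb, 4.58% covered) and 3L 18455270 to 18610308 (155.0 kb, 10.5% covered) with 9 each. Chosen after their values were seen, 3L 24135334 to 24178624 (43.3 kb) was covered to 28.4% by 6 replicate 1 regions and 3R 20488596 to 20529584 (41.0 kb) to 27.9% by 4. Stretches like these are free of KDM4A regions in the combined list and in replicate 2 only.

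Each of the 10 stretches with a replicate 2 region held 1. The regions were 1364 to 1826 bp wide and scored 0.309 to 1.25. The longest such stretch was 3R 26428696 to 26606600 (177.9 kb), with a replicate 2 region at 26516591 to 26518099 that scored 0.511. Next was X 2685222 to 2812966 (127.7 kb), whose replicate 2 region at 2729501 to 2730889 scored 0.674. The highest-scoring one, 1.25, was 3L 24337476 to 24338890, in the stretch nearest the centromere of that arm.

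A single row of the combined list is typed as depleted, not enriched, and it spans 3R 20999270 to 21000960 (score -0.0365). It lay inside the stretch 3R 20956676 to 21018668 (62.0 kb). That stretch held 3 regions of replicate 1 and 1 of replicate 2, and the replicate 2 region, 3R 20999270 to 21000737 (score 0.309), starts at the same base as the depleted row and covers 1468 of its 1691 bases. Replicate 1 covered 0 of them. Those 1468 bases were thus listed as enriched in replicate 2 and as depleted in the combined list. Why the lists differ there was not tested.

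The stretches were bordered by 807 of the 7827 combined regions (10.3%), of which 57 stood alone between 2 stretches. Bordering regions were narrower than the rest and had nearly the same scores. Their median width was 1983 bp (quartiles 1325 and 2635), against 2174 bp (1543 and 3308) for the 7020 other regions, and 39 of them (4.83%) were 5 kb or wider, against 10.3% of the others. Of the narrowest quartile of combined regions 13.6% bordered a stretch, and of the widest 6.45%. The median score was 0.474 (quartiles 0.365 and 0.695) at the borders and 0.483 (0.377 and 0.773) elsewhere. By arm it was 0.446 and 0.462 on 2L, 0.479 and 0.462 on 3L, 0.457 and 0.458 on 3R, and 0.519 and 0.534 on the X, so the sign of the difference was not the same on every arm.

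The share of bordering regions touched by both replicates lay below that of the whole list, and the share touched by neither lay above. In all, 353 of 807 were touched by both replicates (43.7%, exact 95% interval 40.3 to 47.2), against 49.0% (47.8 to 50.2) of the other regions and 48.4% of all combined regions of these arms. A further 308 were touched by replicate 1 alone (38.2%, against 36.1% of all) and 32 by replicate 2 alone (3.97%, against 3.85% of all). Neither replicate touched 114 (14.1%, exact 95% interval 11.8 to 16.7, against 11.6% of all). For stretches of 60 kb or more, both replicates touched 47.3% of the bordering regions and 48.5% of the others. Regions were also counted outward from each side, on past any further stretch. Next to a region standing alone between 2 stretches, the second region outward thus borders the other stretch. Counted over the 864 sides, replicate 2 touched 46.9% of the bordering regions and 52.7% of the second regions outward. It touched 51.8% to 54.8% of the third to eighth, with 52.3% over all combined regions. For replicate 1 the values were 80.8% at the border, 80.9% at the second and 83.2% to 85.6% further out, with 84.6% over all. Median width was 1970 bp at the border, 2060 bp at the second region and 2105 to 2195 bp beyond. Median scores showed no such order (0.459 to 0.493). Wider regions have more room to touch a replicate region, and width moved with the share; its part in it was not tested.

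**Figure D5:**
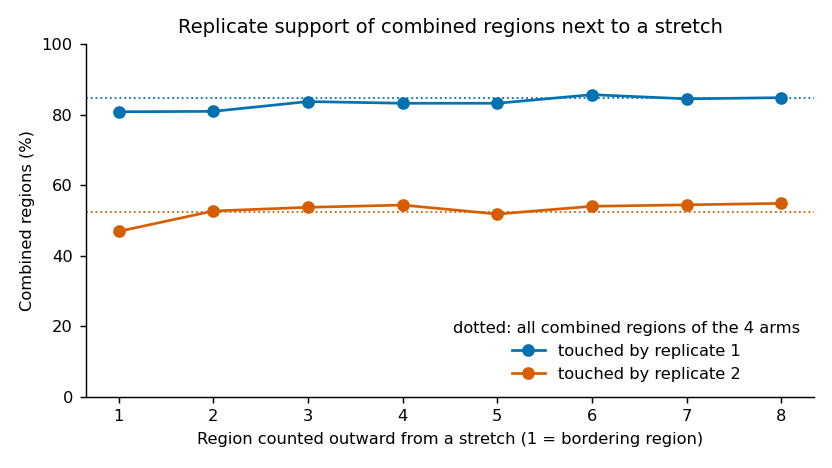
Share of combined regions (%) touched by replicate 1 (blue) and replicate 2 (orange), by their place outward from a stretch, where 1 is the bordering region. Dotted lines give the shares over all combined regions of the 4 arms. Places run on past further stretches. Replicate 2 touched 46.9% at the border and 52.7% at the second region, against 52.3% over all, and replicate 1 touched 80.8% and 80.9%, against 84.6%.

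The regions standing alone between 2 stretches were the narrowest of the borders. The 57 had a median width of 1477 bp, and none was wider than 4411 bp, against a median of 2000 bp for the 750 that bordered 1 stretch. Both replicates touched 16 of them (28.1%, 17.0 to 41.5) and neither replicate touched 16. Of the regions that bordered 1 stretch, 337 were touched by both (44.9%, 41.3 to 48.6) and 98 by neither (13.1%). The median score was 0.445 for the 57 and 0.478 for the 750 that bordered 1 stretch. By their single regions, 108 stretches were linked to a neighbour: 46 pairs, 4 runs of 3 and 1 run of 4. The run of 4 was 2L 4466166 to 4793548 (327.4 kb), broken only by 3 regions of 4987 bp in all. The longest run was 3L 22295660 to 22706424 (410.8 kb), a pair parted by 1 region of 2369 bp that scored 0.818. X 14142704 to 14473518 (330.8 kb) was a pair parted by 1 region of 3969 bp that scored 0.465.

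By point values alone, the share of borders touched by both replicates was below that of the whole list (48.4%) for shorter stretches and above it for longer ones. Over the sides of stretches of 40 to 60 kb, 60 to 100 kb, 100 to 150 kb and longer, the share touched by both was 37.6%, 42.9%, 51.6% and 55.6% (404, 266, 122 and 72 sides). Median scores were 0.461, 0.470, 0.508 and 0.522, and median widths 1895, 1934, 2020 and 2155 bp. No intervals were computed for these classes, and the longer ones have few sides, so an excess over the whole list is not shown. A region standing alone between stretches is counted on each of its sides. Counted as regions, 47.3% of the borders of stretches of 60 kb or more were touched by both (exact 95% interval 42.6 to 52.1). Among the other regions it was 48.5%. In 110 stretches both borders scored above the median of all combined regions of the 4 arms, in 188 one did and in 134 neither did.

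The highest-scoring border of each arm was in most cases absent from both replicates. They were 3L 24134036 to 24135334 (score 3.96, 1299 bp), 2L 15718706 to 15719706 (3.31, 1001 bp) and 3R 15939514 to 15940556 (2.96, 1043 bp), none of them touched by a replicate region, and X 1291122 to 1295178 (2.39, 4057 bp), touched by both. The 3R region stood alone between 2 stretches, of 53.6 and 136.6 kb. The widest borders were 3R 9460122 to 9474904 (14783 bp, score 0.814), 3L 18887752 to 18899764 (12013 bp, 1.16), X 228174 to 239230 (11057 bp, 0.790) and 2L 10963836 to 10973804 (9969 bp, 0.620), and each was touched by both replicates. Beyond them lay stretches of 161.8, 45.4, 40.3 and 96.6 kb, so the widest borders stood next to both long and short ones.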

How the data were processed

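Bowtie 0.12.7 is named in the submitters' processing notes. Per the file headers, positions are on FlyBase release 5. Not given in the sources used here are the peak caller and cutoff, whether input reads entered, and how the replicates gave the combined list. The authors' deposited lists give a score for each region, with no scale named, so scores were compared within a list only. Rows typed as enriched were used. The stretches, lists and comparisons were chosen with earlier results of these data known. Stretch length was the region start minus the largest earlier end. A replicate region counted as inside by its midpoint, and combined regions as touched at 1 bp of overlap. The side of the centromere was taken from the usual orientation of the arms. Shares carry exact Clopper-Pearson 95% intervals. Named stretches were the 10 longest, the longest of each arm, those with the most replicate regions, the longest empty one, the 3 on each side of the minimum and those nearest the arm ends, with the highest-scoring and widest border of each arm. No gene or sequence was assigned, since the only gene table used here follows release 6. Python 3.11.15, numpy 2.4.6, pandas 2.3.3 and scipy 1.17.1 were used, and the code was tested on simulated lists with planted gaps.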

Additional observations from a re-analysis of the deposited data

How the results depend on the processing

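Of 38 alternative values, 25 kept within the spread set for them and 13 did not. The number of stretches was 230 at a minimum of 60000 bp. In place of the combined list, replicate 1 gave 385 and replicate 2 gave 559, which kept within the factor of 1.5 set for counts. The share of the arms in stretches moved to 56.9% with the higher-scoring 50% of combined regions and to 55.5% with the replicate 2 list. With the replicate 1 list it was 30.0%. For this share the spread was 1 SD of these same 2 replicate values, 18.0 percentage points, which is wide. Being made from them, it cannot judge the replicate lists independently. Alternatives for this share that kept within it are among the 25, and they say little. Stretches without a replicate region numbered 35 of 432 when 1 bp of overlap counted and 303 of 432 with the higher-scoring 50% of replicate regions. At 60000 bp they numbered 75 of the 230 stretches left (32.6%), against 166 of 432 (38.4%) in the main setting. Replicate 1 regions inside came to 11.1% at 1 bp of overlap, 5.43% in the higher-scoring 50%, 4.04% at 60000 bp and 5.16% without the outer 5000 bp of each stretch. Replicate 2 regions inside came to 2.29% at 1 bp and 0.0454% in the higher-scoring 50%. Bordering regions touched by both replicates came to 47.3% at 60000 bp, against 48.5% of the other regions. Each setting changed the regions, stretches or list that were counted, and why the values shifted was not tested. No paired analysis was possible because replicate numbers are shared with input libraries only, and regions of these were not analysed here. Unknown read depth limits how far the 2 replicates can be compared.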
